A study of Mus musculus with 6 samples.

Results

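Cytosolic ribosomal proteins are the protein subunits of the ribosome that translates nuclear-encoded messages. Their probe sets were taken by gene name: every probe set (a group of short probes for 1 transcript) with a single gene symbol starting with Rpl or Rps followed by a digit, a or p, without the Rps6k kinases, Rps19bp1 and pseudogenes. This gave 105 probe sets of 49 genes, out of 45101 probe sets and 18193 genes on the array. Of these, 86 probe sets of 46 genes had a mean level above the array median and were tested, 43 for 24 genes of the large (60S) subunit and 43 for 22 genes of the small (40S) subunit. Another 31 symbols of this form, among them Rpl3, Rpl5, Rpl10 and Rplp1, occurred only on probe sets that list several genes and were not analysed here, and neither were Rps27a and Rack1.

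Ribosomal proteins assemble with ribosomal RNA in the nucleolus into a small subunit, which decodes the message, and a large subunit, which forms the peptide bond. Their messages are among the most abundant in any cell and are kept near a fixed ratio to each other. Most of them start with a run of pyrimidines, the 5′ terminal oligopyrimidine tract, through which the mTOR pathway sets their translation.

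The study compared brains of 1-month-old mice lacking Dap12 with brains of heterozygous mice. The Tyrobp gene encodes Dap12, the adaptor that passes on signals from microglial receptors such as Trem2. The design text places the tissue in the midbrain, with diencephalon and basal ganglia, and counts 3 mice of each genotype; the labels name the Dap12-ko samples 67, 68 and Ko1 and the Dap12-het samples 75, 76 and 81. The heterozygous controls also carry a Dap12-deficient allele, wild-type mice were not part of the samples analysed here, and the sources used here did not give strain, sex or the construction of the allele.

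The Tyrobp probe set followed the genotype labels, with signals of 2.277, 23.67 and 12.89 on knockout 67, 68 and Ko1 against 70.67, 68.19 and 77.6 on heterozygous 75, 76 and 81 (limma log2 change -1.68 ± 0.33, standard error, adjusted p = 0.0439). Leaving out any single array but Ko1 ended that call, with adjusted p from 0.0881 to 0.220. Knockout 67 and 68 stood apart from the other 4 arrays. Across all probe sets their log2 signals correlated at 0.928 with each other and at 0.850 to 0.894 with the rest, while Ko1 and the heterozygous arrays correlated at 0.909 to 0.981. Signals of the 42 spiked-in control probe sets, added in fixed amounts, did not overlap between the genotypes and were all higher in the knockout, with medians of 12350, 8102 and 11900 against 3860, 4175 and 4154. Neuronal, astrocyte and myelin markers were present on all arrays. Their summed signals were 20650 to 28170 on the knockout against 19270 to 20810 on the heterozygous arrays for neurons (4 of 21 probe sets called higher, of Syt1 and Map2). They were 18580 to 20390 against 13210 to 16160 for astrocytes (2 of 29 called higher) and 2753 to 3142 against 1857 to 2329 for microglia (none of 16 called). Summed signals of the choroid plexus markers were 16350 and 18040 on knockout 67 and 68, 679.2 on Ko1 and 882.8 to 3781 on the heterozygous arrays. Summed myelin markers reached 29810 to 69210 on the knockout arrays and 22260 to 23180 on the heterozygous arrays, and 8 of their 25 probe sets were called higher. Over all probe sets tested, 1.24% were called higher. After quantile normalization, Mobp 1450088_a_at alone of these myelin probe sets kept its call (adjusted p = 0.0366). The astrocyte calls, of Fgfr3 and Glul, ended (adjusted p = 0.0698 and 0.109), and those of Syt1 and Map2 remained. Centring on array medians kept the calls of Mbp, Mobp 1450088_a_at, Syt1 and Map2 and ended those of Mal, Mobp 1421010_at, Fgfr3 and Glul. Actin signal ratios of the 3′ to the 5′ probe set, a sign of RNA quality, were 1.76 to 2.33 on the knockout and 1.59 to 2.12 on the heterozygous arrays. The part of these differences in the results below was not tested.

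Among the ribosomal proteins, Rps29 alone passed the test, and it rose in the knockout samples. Of the 86 probe sets, 1 was called higher and none lower at a limma adjusted p below 0.05, where 1.24% of all 22518 probe sets tested were called higher and 0.733% lower. The share called higher, 1 of 86, was thus close to that over all probe sets. At an unadjusted p below 0.05 the counts were 27 higher and 3 lower, against 11.7% and 9.22% of all probe sets. On 31 probe sets every knockout signal lay above every heterozygous signal and on 4 every one lay below, against 14.9% and 12.5% of all probe sets. Both pairs of counts depended on the scaling. After quantile normalization 7 probe sets were higher and 11 lower at an unadjusted p below 0.05, against 8.84% and 9.54% of all, and 15 lay above and 15 below without overlap, against 11.8% and 13.5%. After centring each array on its median the former were 5 and 15, against 3.73% and 26.2%, and the latter 7 and 6, against 5.23% and 30.4%. In the reported scaling, counts above without overlap also differed with signal level. At mean levels of 4000 and above they were 14 of 15 ribosomal and 110 of all 129 probe sets. Between 2000 and 4000 they were 11 of 35 and 124 of all 342, and between 1000 and 2000 none of 9 and 108 of all 724. Between 200 and 1000 they were 1 of 12 and 490 of all 5573, and below 200 5 of 15 and 2526 of all 15750. The median log2 change (knockout minus heterozygous) over the 86 probe sets was 0.12, with 49 above 0, beside 0.00 over all probe sets. The direction of the median also depended on the scaling: it was -0.22 after quantile normalization, where all probe sets had -0.07, and -0.28 after centring, which moved all probe sets to -0.40. It was -0.02 without Ko1 and 0.24 without knockout 67. In whole tissue, fewer cells of a type and less RNA per cell cannot be told apart.

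Rps29 encodes a small zinc-binding protein of the 40S subunit. Its probe set 1438859_x_at gave 15350, 14550 and 10390 on knockout 67, 68 and Ko1 against 6170, 6120 and 6329 on heterozygous 75, 76 and 81. All 3 knockout signals lay above the heterozygous ones, which differed little from each other. The means were 13429 ± 2664 and 6206 ± 109 (SD, n = 3), and the log2 change was 1.09 ± 0.17 (adjusted p = 0.0287). The other Rps29 probe sets had log2 changes of 0.75 (adjusted p = 0.0593) and 0.97 (adjusted p = 0.0735), also without overlap between the groups. The call was not stable. After quantile normalization the sign turned, to -0.50 (adjusted p = 0.102), and after centring the value was 0.69 (adjusted p = 0.0454). Leaving out knockout 67 or 68 or heterozygous 75, 76 or 81 ended the call, with adjusted p from 0.0878 to 0.184, and leaving out Ko1 kept it at 1.27.

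Next in order, with higher knockout signals that missed the threshold, came 3 further proteins of the 40S subunit. Rps28, which lies near the message exit, gave 7789, 8462 and 6159 on knockout 67, 68 and Ko1 against 4300, 4129 and 4618 on heterozygous 75, 76 and 81 with probe set 1451101_a_at (0.77 ± 0.16, adjusted p = 0.0522). Its other probe sets had log2 changes of 0.57 and 0.67. Rps7 gave 4642, 5293 and 5667 against 3195, 3170 and 3335 in the same order with 1419364_a_at (0.68 ± 0.14, adjusted p = 0.0549), while its other probe set had 0.24 with overlapping groups (adjusted p = 0.626). Rps4x, the X-linked form of S4, gave 4026, 4832 and 4373 against 2798, 2788 and 2858 (0.64 ± 0.14, adjusted p = 0.0592). On 1451101_a_at, 1419364_a_at and the Rps4x probe set the groups did not overlap. The log2 changes shrank under other scalings, to 0.06 for Rps28, 0.26 for Rps7 and 0.29 for Rps4x after quantile normalization and to 0.37, 0.28 and 0.24 after centring.

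The 3 uncalled probe sets with the smallest p in the other direction were of Rpl13a, Rps27l and Rps18. Rpl13a, a 60S protein also known for a role in silencing inflammatory messages, gave 621.8, 550.1 and 915 on knockout 67, 68 and Ko1 against 1218, 1279 and 1198 on heterozygous 75, 76 and 81 with 1455001_x_at (-0.84 ± 0.21, adjusted p = 0.0791). Rps27l, a paralog of Rps27 that p53 is known to induce, gave 244.6, 306.5 and 369.5 against 516.8, 478.1 and 443.9 with 1450925_a_at (-0.63 ± 0.20, adjusted p = 0.131). Rps18 gave 1329, 1511 and 2496 against 2711, 2505 and 2828 with 1448739_x_at (-0.64 ± 0.24, adjusted p = 0.172). Another Rps18 probe set, 1455572_x_at, lay in the opposite direction without overlap, with 2199, 1983 and 2824 against 1705, 1766 and 1858 (0.38 ± 0.18, adjusted p = 0.263). In the 3 lower probe sets the groups did not overlap, and Ko1 was the knockout array nearest to the heterozygous ones.

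**Figure D1:**
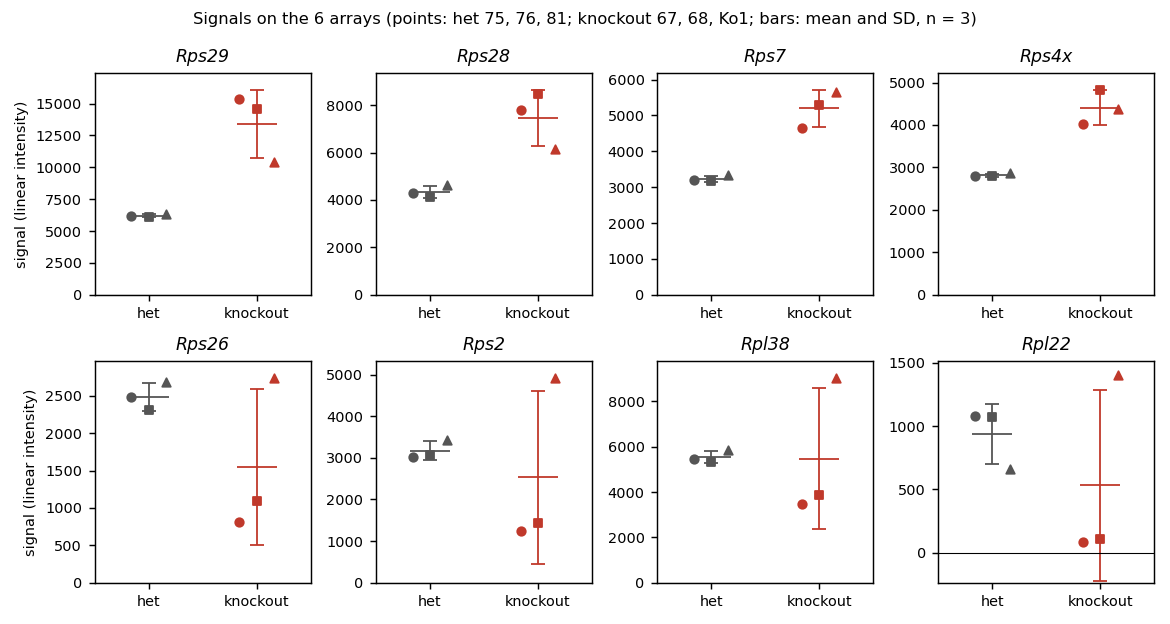
Signals (linear intensity, vertical axis from 0 except where an SD bar passes below it) of 8 ribosomal protein probe sets, with a point per array and bars for the mean and SD of each group, n = 3. In the upper row all knockout arrays lay above all heterozygous arrays; in the lower row, picked after the values were seen, knockout 67 and 68 lay below them and Ko1 above.

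The knockout arrays did not move alike. The median log2 change of the 86 probe sets from the heterozygous mean was -0.11 on knockout 67, 0.07 on 68 and 0.47 on Ko1, where all probe sets had medians of 0.04, 0.03 and 0.01. Probe sets of the highest signal level rose in general on Ko1 and also on 67 and 68. At mean levels of 4000 and above, ribosomal medians were 0.53 on 67 and 0.59 on 68. Those of all probe sets were 0.73 on 67 and 0.73 on 68. Between 2000 and 4000 the ribosomal medians on 67 and 68 were -0.06 and 0.13. Those of all probe sets were 0.16 and 0.20. At mean levels of 4000 and above the Ko1 medians were 0.58 for ribosomal and 0.52 for all probe sets. Between 2000 and 4000 they were 0.51 and 0.35, and between 1000 and 2000 0.23 and 0.10. Between 200 and 1000 they were 0.04 and -0.05, and below 200 0.35 and 0.01. Ko1 lay above all heterozygous arrays for 72 of the 86 (83.7%), against 35.3% of all probe sets. This count was 46 after quantile normalization, against 34.5% of all, and 59 after centring, against 26.2%. Knockout 67 and 68 both lay above them for 32, against 28.6% of all, and both lay below for 30, against 25.6%. After quantile normalization these were 17 above, against 23.7%, and 45 below, against 29.5%. After centring they were 7 above, against 8.96%, and 56 below, against 56% of all. On 25 of the 86 probe sets (29.1%) 67 and 68 lay below and Ko1 above every heterozygous array, against 6.79% of all probe sets. This split, a pattern picked after the values were seen, held 21 of the 86 after quantile normalization, where it held 8.21% of all probe sets, and 34 after centring, where it held 10.9%. It covered 17 probe sets of the 60S and 8 of the 40S subunit, from 18 genes. Summed signals of translation factors also had this order, with 31770, 34920 and 50620 on knockout 67, 68 and Ko1 against 42210 to 45240 on heterozygous arrays. Those of mitochondrial ribosomal proteins did too, with 19170, 20680 and 25400 against 23260 to 25030. So did those of regulators of ribosomal protein message translation, but not of ribosome assembly factors or RNA polymerase I. The split was not counted within these lists.

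Rps26, at the message exit channel, showed the split with 806, 1094 and 2742 on knockout 67, 68 and Ko1 against 2479, 2306 and 2677 on heterozygous 75, 76 and 81 (-0.88 ± 0.39, adjusted p = 0.240). Rps2, at the message entry, gave 1244, 1430 and 4928 against 3023, 3069 and 3438. Rpl38, known from skeletal patterning defects in mice that lack a copy, gave 3460, 3879 and 9043 against 5453, 5330 and 5863. These 3 were picked after their values were seen. In each, the knockout mean hid signals on both sides of the heterozygous range, and none passed the test.

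Fits without some of the arrays follow from these differences and are no further support for them. Without Ko1, 23 of the 86 probe sets were called higher and 20 lower, beside 11.9% and 11.3% of all probe sets. Those called higher included all 3 probe sets of Rps29 and of Rps28, and those called lower included Rps26, Rplp0, Rps2 and Rpl38. Without knockout 67 and 68, with Ko1 assumed to vary like the other arrays, 18 were called higher and none lower, beside 1.07% and 1.67% of all, and at an unadjusted p below 0.05 there were 52 higher and 1 lower, against 11.4% and 12.2%. The median log2 change was then 0.47, and 76 of the 86 lay above 0.

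**Figure D2:**
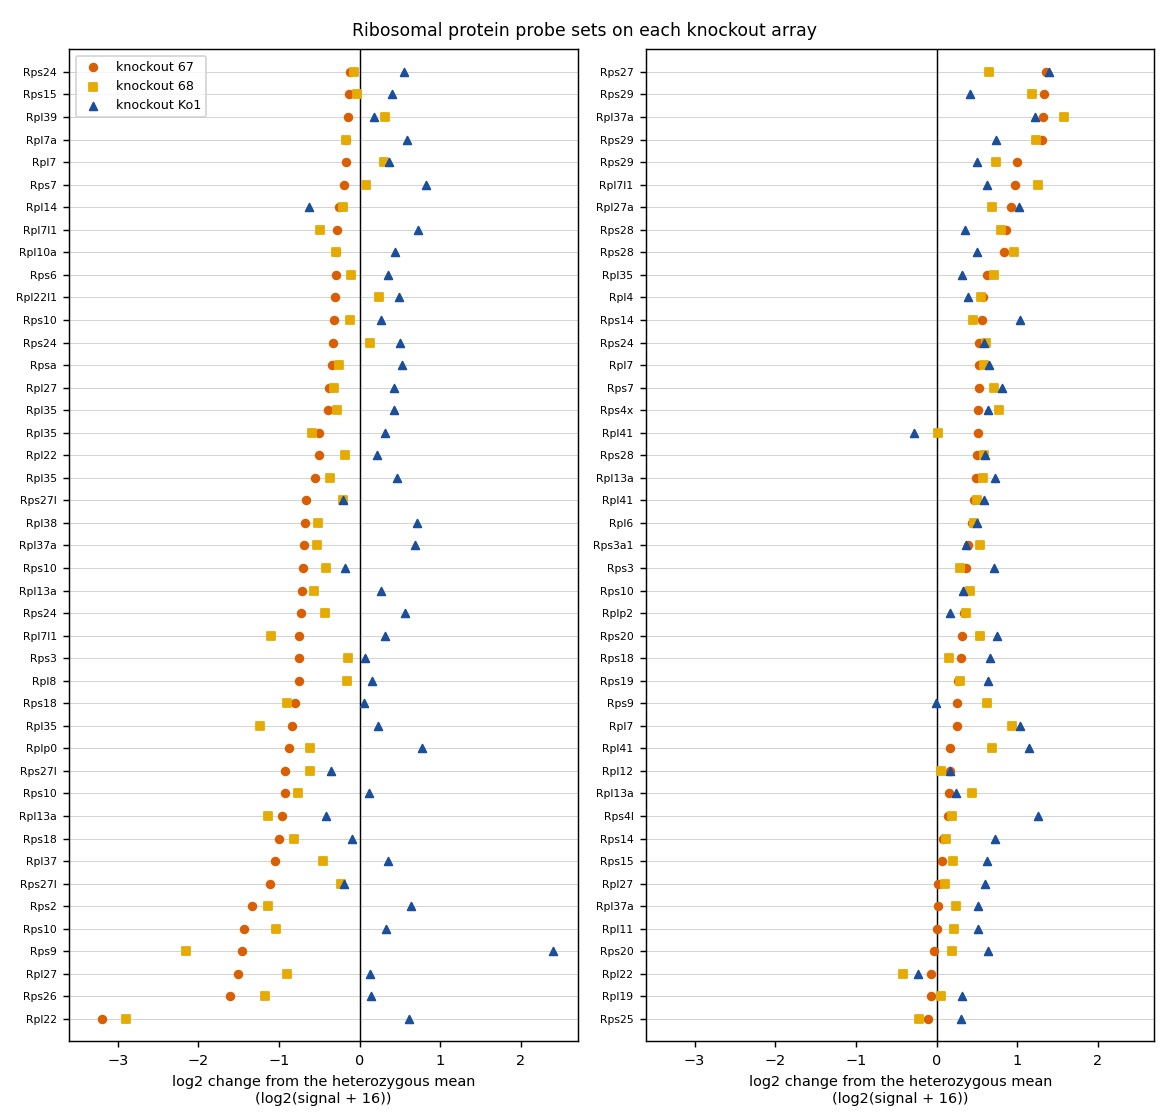
Log2 change of each of the 86 tested ribosomal protein probe sets from the mean of the 3 heterozygous arrays, on the log2(signal + 16) scale (horizontal axis), with 1 row per probe set and a point for each knockout array, ordered by knockout 67. Points of 67 and 68 mostly lie closer to each other than to Ko1, and those of Ko1 lie mostly to the right of 0 (72 of 86 above all heterozygous arrays).

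The transcription starts of 8 genes are shown because the pyrimidine tract begins there, as 15 bases before the annotated start and 15 from it, in capitals where a C followed by at least 4 pyrimidines began within 5 bases of the start. Coordinates and sequences are those of RefSeq, assembly GRCm38.p6. In 4 genes with all knockout signals above the heterozygous ones, the run was present in Rplp2 (chr7:141447636-141447665, plus strand) and Rps27 (chr3:90213634-90213663, minus) but not in Rps28 (chr17:33824548-33824577, minus) or Rps7 (chr12:28635939-28635968, minus).
Rplp2: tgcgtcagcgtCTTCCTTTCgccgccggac
Rps27: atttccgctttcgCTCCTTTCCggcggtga
Rps28: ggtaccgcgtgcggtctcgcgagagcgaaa
Rps7: gcttccggtttccacccacctacttccgct
In 4 genes with the split, it was present in Rpl38 (chr11:114668565-114668594, plus strand) and Rps26 (chr10:128626492-128626521, minus) but not in Rplp0 (chr5:115559452-115559481, plus) or Rpsa (chr9:120127751-120127780, plus).
Rpl38: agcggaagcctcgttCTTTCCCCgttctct
Rps26: gtcgggcaagccgccggatCCTCTTTCgag
Rplp0: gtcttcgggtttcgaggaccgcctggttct
Rpsa: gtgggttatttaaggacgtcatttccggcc
Over all genes with such a window, the run stood at the start of 9 of 17 with the split, of 8 of 19 with all knockout signals above and of 3 of 3 with all below, and some genes stand in more than 1 of these groups. The 8 genes were picked after their values were seen, and a match or its absence at an annotated start describes these letters only.

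A promoter window of 300 bases, 250 before the start and 50 after it, was held by RefSeq for 43 of the 49 genes, and Rps29 was not among them. A pyrimidine run as above stood at the start of 20 of the 43 (46.5%), against 21.2% of 27025 genes with such a window. CCGGAA, the core of ETS family sites, occurred on either strand in 28 (65.1%), against 16.7%, or 20.9% of protein-coding genes. GGGCGG, the core of SP1 sites, occurred on either strand in 25 (58.1%), against 38.2%, or 49.2% of protein-coding genes. No ribosomal protein promoter had overlapping matches of the last 2, which were rare in general, at 0.392% of all genes and 0.537% of protein-coding genes. The 49 genes lay on 17 chromosomes, with at most 7 on any of them.

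The ribosomal stalk recruits the elongation factors. Its base protein Rplp0 gave 993.2, 1189 and 3142 on knockout 67, 68 and Ko1 against 1892, 1846 and 1758 on heterozygous 75, 76 and 81 (-0.24 ± 0.38, adjusted p = 0.757). The stalk protein Rplp2 gave 5099, 5207 and 4517 against 3797, 3834 and 4490 (0.29 ± 0.15, adjusted p = 0.297). Rplp0 thus had the split, while the Rplp2 groups did not overlap, although heterozygous 81 and Ko1 were 4490 and 4517.

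Rpsa, a 40S protein that also serves as a laminin receptor, gave 2159, 2295 and 3966 on knockout 67, 68 and Ko1 against 2525, 2627 and 3120 on heterozygous 75, 76 and 81 (-0.02 ± 0.24, adjusted p = 0.966). Rps6, the 40S protein phosphorylated by the S6 kinases, gave 102.8, 119.4 and 170.4 against 131.8, 122 and 136.5 (-0.02 ± 0.22, adjusted p = 0.973). Rpl11, which binds Mdm2 when ribosome assembly fails, gave 2093, 2431 and 2988 against 2097, 2238 and 1937 (0.25 ± 0.18, adjusted p = 0.461). Rpsa and Rps6 had the split, and the Rpl11 groups overlapped through knockout 67 alone. The Rps6 probe set was dim, with a mean signal of 130.5 over the 6 arrays, and knockout 68 and heterozygous 76 were 119.4 and 122.

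Paralogs and their partner genes gave no call. Rpl22, a 60S protein whose loss is known to raise its paralog Rpl22l1, gave 85.89, 109 and 1401 on knockout 67, 68 and Ko1 against 1078, 1075 and 661.8 on heterozygous 75, 76 and 81 with 1416603_at (-1.83 ± 0.86, adjusted p = 0.267). Its other probe sets had log2 changes of -0.24 and -0.16. Rpl22l1 gave 1826, 2674 and 3165 against 2484, 2174 and 2142 (0.14 ± 0.22, adjusted p = 0.752). On 1416603_at and for Rpl22l1 the knockout arrays lay on both sides of the heterozygous range, while on Rpl22 1448398_s_at none lay above it.

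Rps27 gave 180.1, 104.5 and 184.9 on knockout 67, 68 and Ko1 against 87.63, 44.26 and 55.91 on heterozygous 75, 76 and 81 (1.13 ± 0.29, adjusted p = 0.0828), without overlap. This was the only Rps27 probe set tested, and it was dim, with a mean signal of 110 over the 6 arrays. The paralog Rps27l had negative log2 changes on all 3 probe sets, -0.63, -0.51 and -0.36. Rps4l gave 110.9, 115.1 and 258.6 against 108.2, 102.4 and 87.64 (0.53 ± 0.31, adjusted p = 0.371), so that Ko1 stood well above the other knockout arrays. Rpl39, a 60S protein of the peptide exit tunnel, gave 90.67, 130.9 and 116.8 against 117.9, 94.92 and 94.23 (0.12 ± 0.22, adjusted p = 0.797). Rpl3l and Rpl39l, paralogs known from muscle and testis, had no tested probe set, and neither had Rps16. The 19 untested probe sets had mean signals of 0.98 to 24.4 and reached at most 48.2 on any array. Rpl10l, Rpl26l1, Rpl36al and Rpl36a were not analysed here.

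Probe sets of the same gene often differed. Of the 20 genes with more than 1 tested probe set, 10 had log2 changes on both sides of 0, and the median gap between a gene's highest and lowest change was 0.71. The gap was 1.67 for Rpl22, 1.55 for Rpl37a, 1.46 for Rpl7l1, 1.43 for Rpl13a and 1.16 for Rpl35. The Rpl13a probe set 1455485_x_at gave 6010, 6369 and 7061 on knockout 67, 68 and Ko1 against 4024, 4288 and 4563 on heterozygous 75, 76 and 81 (0.59 ± 0.14, adjusted p = 0.0689), opposite in direction to 1455001_x_at. The remaining Rpl13a probe sets had log2 changes of 0.28 and -0.34.

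Rpl37a, a zinc-binding 60S protein, gave 200.6, 244.3 and 186.3 on knockout 67, 68 and Ko1 against 113.1, 31.78 and 91.25 on heterozygous 75, 76 and 81 with 1416218_x_at (1.37 ± 0.36, adjusted p = 0.0841). With 1460543_x_at it gave 2221, 2486 and 5816 against 3572, 3497 and 3761 (-0.18 ± 0.33, adjusted p = 0.789), and its remaining probe set had a log2 change of 0.26. Rpl7l1, a paralog of Rpl7 that takes part in ribosome assembly, gave 217.7, 269.8 and 167.7 against 102.8, 122.7 and 87.77 with 1426386_at (0.95 ± 0.23, adjusted p = 0.0739). Its other probe sets were at -0.51 and -0.02. Rpl35, a 60S protein beside the exit tunnel, ranged from -0.61 to 0.55 over 5 probe sets. In 6 genes (Rpl13a, Rpl35, Rpl37a, Rpl7l1, Rps10 and Rps24) one probe set had the split and another had all knockout signals above the heterozygous ones, so no single direction held for these genes.

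Many ribosomal protein probe sets can share probes with related sequences. Of the 86, 38 carried the array's suffix _x_at, 27 the suffix _a_at, 3 the suffix _s_at, and 18 no suffix. The median log2 change was 0.18 for _x_at, which held the call, 0.26 for _a_at, -0.16 for _s_at and -0.01 for probe sets with no suffix. Ribosomal protein genes have many processed pseudogenes, so signals of single probe sets are uncertain.

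**Figure D3:**
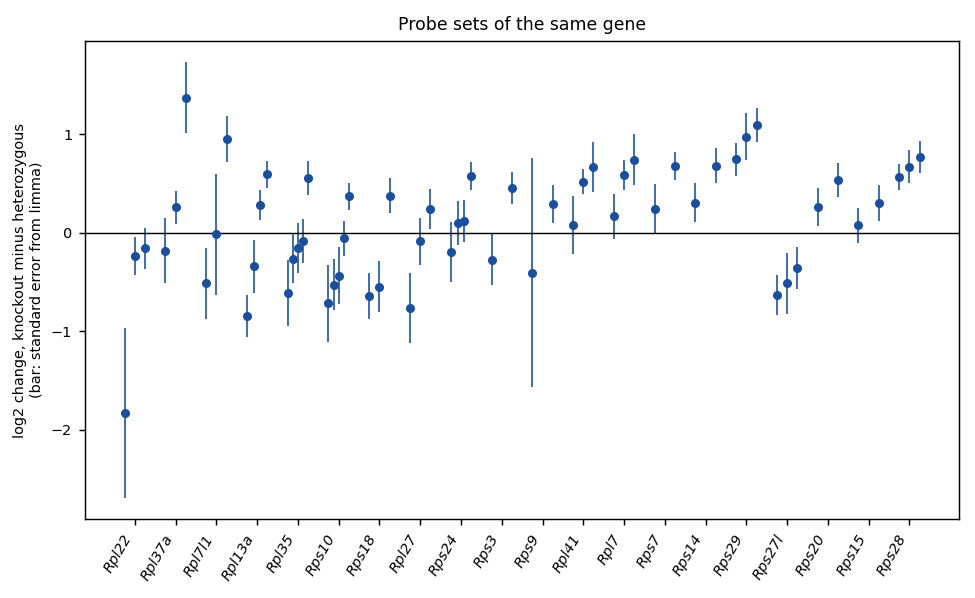
Log2 change (knockout minus heterozygous, vertical axis) with limma's standard error as a bar for each tested probe set of the 20 genes with more than 1, ordered by the gap between their probe sets. Probe sets of Rpl22, Rpl37a, Rpl7l1, Rpl13a and Rpl35 differ most, by 1.16 to 1.67. Those of Rps29, Rps28, Rpl41, Rpl7, Rps7, Rps14, Rps20 and Rps15 all lie above 0, and those of Rpl22 and Rps27l all lie below.

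The change differed between ranges of signal level, among the ribosomal proteins and among all probe sets. At mean levels of 4000 and above, 14 of 15 ribosomal probe sets had a positive log2 change with a median of 0.59, and all 129 probe sets at that level had a median of 0.63, with 124 above 0. Between 2000 and 4000 the medians were 0.24 for 35 ribosomal probe sets and 0.21 for all 342. Between 1000 and 2000 only 1 of 9 ribosomal probe sets lay above 0, with a median of -0.26, where 348 of all 724 lay above 0, with a median of -0.02. Between 200 and 1000 it was 2 of 12, with -0.37 against -0.16, and below 200 it was 8 of 15, with 0.08 against 0.06. The called Rps29 probe set lay in the highest of these ranges, where 33 of the 129 probe sets were called higher.

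**Figure D4:**
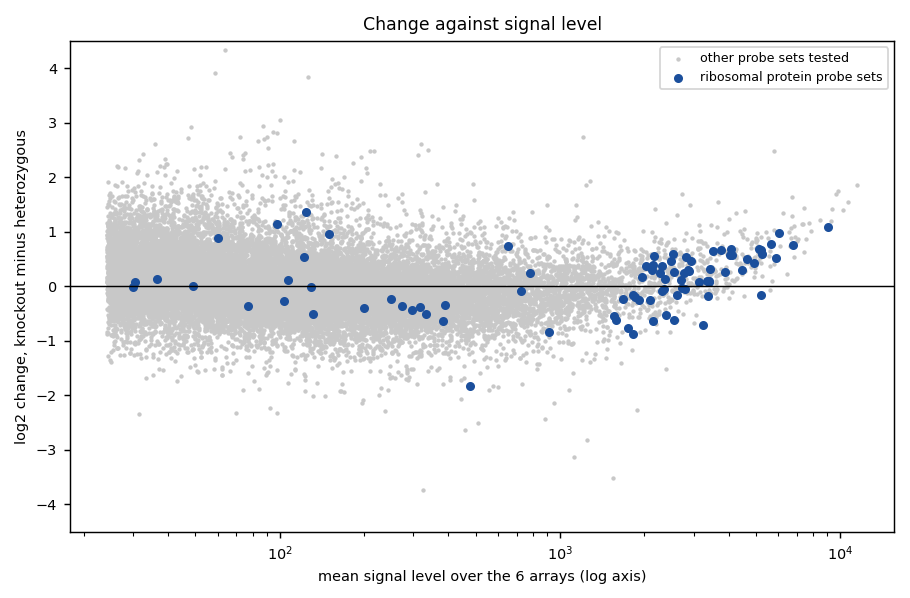
Log2 change (knockout minus heterozygous, vertical axis) against the mean signal level over the 6 arrays (log axis) for all 22518 probe sets tested, with the 86 of ribosomal proteins in blue. Above 4000, 124 of 129 probe sets lie above 0, among them 14 of 15 ribosomal ones.

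By subunit, the median log2 change was 0.26 for the 43 probe sets of the 40S and 0.08 for the 43 of the 60S subunit. Groups without overlap numbered 19 higher and 3 lower for the 40S and 12 higher and 1 lower for the 60S subunit. Over all probe sets tested the shares were 14.9% higher and 12.5% lower, and the difference between subunits was not tested. The 40S protein Fau, whose symbol falls outside the naming pattern, gave 2911, 2850 and 2903 on knockout 67, 68 and Ko1 against 2576, 2281 and 2400 on heterozygous 75, 76 and 81 (0.26 ± 0.14, adjusted p = 0.339).

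Genes that make or use ribosomes gave calls for Eif4a1 and Rrs1. Among translation initiation and elongation factors, 2 of 100 probe sets were called higher and none lower, both of Eif4a1, the helicase that unwinds messages before the 40S subunit scans them. That share was close to the 1.24% called higher over all probe sets. Its probe set 1430980_a_at gave 923.8, 1260 and 732.1 on knockout 67, 68 and Ko1 against 249.4, 326.4 and 184.1 on heterozygous 75, 76 and 81 (1.87 ± 0.27, adjusted p = 0.0237), and 1427058_at rose by 1.01 ± 0.20 (adjusted p = 0.0444). The median of the list was -0.04.

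Of 94 probe sets for ribosome assembly factors, 1 was called lower and none higher, against 0.733% and 1.24% of all probe sets. The share called lower was thus close to that over all probe sets. The called probe set was that of Rrs1, needed for 60S assembly. It gave 82.8, 124.5 and 184.5 on knockout 67, 68 and Ko1 against 369, 302.9 and 374 on heterozygous 75, 76 and 81 (-1.37 ± 0.27, adjusted p = 0.0465). Rrp12 was next, at -0.94 (adjusted p = 0.0840). The list's median was 0.04, against 0.00 over all probe sets. The Eif4a1 and Rrs1 calls also ended when any single array but Ko1 was left out, with adjusted p from 0.0691 to 0.220. After quantile normalization the log2 changes were 1.94 for Eif4a1 1430980_a_at (adjusted p = 0.0276), 1.09 for 1427058_at (adjusted p = 0.0602) and -1.33 for Rrs1 (adjusted p = 0.0798). Centring lowered 1427058_at to 0.61 (adjusted p = 0.111).

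No call was made among 127 probe sets of mitochondrial ribosomal proteins, which build the separate ribosome of mitochondria (median -0.09). The smallest p-values there were those of Mrps34 at -0.91 (adjusted p = 0.0630) and Mrpl27 at 0.98 (adjusted p = 0.0781). None was made among 24 probe sets of RNA polymerase I, which transcribes ribosomal RNA (median 0.12), where Polr1d had -0.99 (adjusted p = 0.127) and Polr1a had -1.14 (adjusted p = 0.144). The 31 probe sets of regulators of ribosomal protein message translation also gave none (median 0.02). Among them were the mTOR complex subunit Mlst8 at 1.18 (adjusted p = 0.0739) and the mTOR target Eif4ebp2 at -1.56 (adjusted p = 0.0921).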

How the data were processed

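Total RNA of 6 brain samples was hybridised to 1-colour Affymetrix arrays after Trizol and RNeasy extraction and one-cycle biotin labelling, per the labels' protocols. The deposited values are linear signal intensities from GCOS, per the submitters' processing notes. Each array's mean was 100 after trimming 2% at each end, a scaling by the authors that was kept. The sources used here gave no summary algorithm or detection calls.

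Signals were taken as log2(signal + 16), which understates changes of dim probe sets. After removal of controls, 22518 probe sets with a mean log2 level above the median were fitted with limma 3.58.1 in R 4.3.3 (1 term for genotype, eBayes with a trend on level, two-sided). P-values were adjusted by Benjamini-Hochberg over all of them, and called at 0.05. Each log2 change is given with its standard error, and the 3 mice per group limit the precision. An exact permutation test of 3 against 3 arrays cannot go below p = 0.1. The procedure was tested on simulated data. That simulation drew noise independently for each probe set and array, so it did not cover differences between whole arrays such as those seen here.

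Symbols came from the platform annotation, which can be old. The members and gene lists were chosen with earlier results of these data known. Named were Tyrobp, called members, the 3 uncalled probe sets of smallest p in each direction, a fixed set of stalk, regulatory and paralogous genes, the 5 genes with the widest gaps between probe sets, and 2 genes per pathway list; other genes were picked after their values were seen. Alternatives were quantile normalization, centring, a floor of 1, 64 added, no or a stricter filter, eBayes without trend or robust, omission of arrays, 1 probe set per gene and, added after the data were seen, a filter on the mean linear signal and recounts of patterns over arrays and of unadjusted p-values under both other scalings.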

Additional observations from a re-analysis of the deposited data

How the results depend on the processing

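The number of ribosomal protein probe sets called higher was 1 of 86, beside 280 of all 22518. It was 0 after quantile normalization and without a trend, beside 75 and 123 of all. Without a filter on level it was 0, beside 63 of all 45037. It was also 0 among the probe sets with no suffix, but with only 18 tested this does not show a loss. With 64 added, with robust estimation and with the added filter on linear signal it was 2, beside 264, 278 and 297 of all 22518. Among the brightest 25% of probe sets it was 6 of 78, beside 168 of all 11259. Leaving out 1 array gave 0 to 23 higher, 0 to 20 lower and 0 to 5220 calls over all probe sets, with every ribosomal call coming from the fit without Ko1. Calls over all probe sets, 445 in the reported fit, were 129 after quantile normalization, 124 without a filter, 180 without a trend and 116 with 1 probe set per gene. Centring gave 100 higher and 481 lower, against 280 and 165. The ribosomal median of 0.12 moved to -0.22 after quantile normalization, -0.28 after centring and 0.47 without knockout 67 and 68, and leaving out 1 array gave -0.018 (without Ko1) to 0.24 (without 67).

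Quantile normalization turned the sign for Rps29 (-0.50), Rpl13a 1455485_x_at (-0.072), Rpl22l1 (-0.043), Rpl37a 1416217_a_at (-0.16) and Rplp2 (-0.28). Centring did so for Rpl11 (-0.16), Rpl13a 1417608_a_at (-0.12), Rpl22l1 (-0.26), Rpl37a 1416217_a_at (-0.14), Rpl39 (-0.29) and Rplp2 (-0.11), and a floor of 1 for Rpl7l1 1439780_at (0.86). Without knockout 67 and 68 the values were 0.26 for Rpl13a 1433928_a_at, 0.60 and 0.22 for Rpl22, 0.46, 0.31, 0.23 and 0.43 for Rpl35, 0.69 for Rpl37a 1460543_x_at, 0.72 and 0.31 for Rpl7l1, 0.77 for Rplp0, 0.35 for Rps6 and 0.53 for Rpsa, each negative in the reported fit. Leaving out 1 array gave -0.34 to 0.018 for Rpl22 1453118_s_at, -0.46 to 0.047 and -0.34 to 0.075 for Rpl35, -0.62 to 0.076 for Rpl37a 1460543_x_at, -0.75 to 0.36 for Rpl7l1 1439780_at, -0.74 to 0.078 for Rplp0, -0.20 to 0.12 for Rps6, -0.30 to 0.14 for Rpsa and -0.033 to 0.36 for Rpl22l1. The cause was not tested. Of the 35 named probe sets' values under all alternatives, 498 kept their sign and their side of the threshold, 31 newly passed it, 7 no longer did and 42 turned sign. No paired analysis was possible because the groups share no replicate numbers.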
